A study of Homo sapiens with 24 samples.

Results

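The genes described here encode the SMAD proteins, the transcription factors that carry signals of the TGFβ family from the cell surface to the nucleus, and the SMURF proteins, which are ubiquitin ligases of that pathway. They were chosen by gene symbol alone, as every probe whose gene name in the scanner files was SMAD1, SMAD2, SMAD3, SMAD4, SMAD5, SMAD6, SMAD7, SMAD9, SMURF1 or SMURF2. This gave 11 probes for 10 genes, out of 34127 probes on the array, and all 11 were among the 23827 probes tested. SMAD9 had 2 probes, named here the brighter and the dimmer one, and each other gene had 1. The RNA came from A549 and H1975, both established lines of human lung adenocarcinoma. Cells of each line were kept for 6 h or 24 h with Pirfenidone, an anti-fibrotic drug, at 0.75 mg/ml or with the same volume of PBS and no drug. The resulting 8 groups of 3 samples were hybridized to 24 one-color Agilent arrays, on which the brightness of a spot measures the RNA bound by its probe. The labels name no TGFβ or other ligand in any group. In RNA of whole cultures, fewer cells with a transcript and less of it per cell cannot be told apart.

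When a ligand of the family binds its receptors, the receptors phosphorylate the carboxy-terminal end of the receptor-regulated SMADs, which then join SMAD4 and enter the nucleus. SMAD2 and SMAD3 serve the TGFβ and activin receptors, and SMAD1, SMAD5 and SMAD9 serve mainly the receptors of the bone morphogenetic proteins (BMPs). SMAD6 and SMAD7 are inhibitory: they bind receptors without being activated, recruit SMURF1 and SMURF2 to degrade receptors or SMADs, and are themselves target genes of the pathway.

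The probes of SMAD5 and SMAD9 are shown because they measure the same end of 2 related genes and are close in sequence. Each is a 60-base probe with an open reading frame along its whole length, and the capitals mark the last 15 bases, which code for the phosphorylated end of the protein and finish with the stop codon.
SMAD5, chr5:135513109-135513168 on hg19, plus strand: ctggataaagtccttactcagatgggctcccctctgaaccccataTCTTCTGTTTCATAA
SMAD9 brighter probe, chr13:37422813-37422872 on hg19, minus strand: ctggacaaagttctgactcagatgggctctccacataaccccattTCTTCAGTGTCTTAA
Aligned base by base, 49 of the 60 positions were identical and 11 differed, and the longest shared run was 14 bases. Whether RNA of one gene also bound the probe of the other was not tested. The dimmer probe of SMAD9 lies apart from it at chr13:37419488-37419547 on the minus strand of hg19, and is described beside it throughout.

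A level is given here as the relative log2 signal, the log2 processed signal of a probe after its array's 75th percentile was subtracted, so that 0 is the brightness of that percentile and 1 unit is a doubling. Levels are compared between samples for the same probe and never between probes, whose binding differs. All 24 arrays were well above background for 9 of the 10 genes and for the brighter SMAD9 probe, and none of these spots was saturated. The dimmer SMAD9 probe was well above background on 12 of 12 H1975 arrays but on 8 of 12 A549 arrays, so its A549 values lie near the limit of measurement. SMAD3 and SMAD4 were each printed on 10 spots of every array. The standard deviation among the spots of an array had a median of 0.04 for SMAD3 and 0.05 for SMAD4, whereas that among the 3 arrays of a group had a median of 0.21 for SMAD3 and 0.12 for SMAD4. Repeated spots thus spread less than repeated samples.

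The arrays came from 4 runs, taken from the date in their file names, and lay on 7 slides. Each PBS sample has a Pirfenidone sample of the same line, time and run, and the array's place on a slide was set by treatment and time, so place and treatment cannot be told apart. The samples of such a pair shared a slide, except in H1975 cells at 24 h in run 3, where the PBS array lay on another slide. In that pair slide and treatment cannot be told apart either. The share of all probes well above background was 62.7% to 69.5% over the arrays. All 5 epithelial markers (EPCAM, KRT8, KRT18, KRT19 and CDH1) gave signal well above background on each of the 24 arrays. Of the leukocyte markers, CD3E was above background on 0 A549 arrays and 1 H1975 array, CD14 on all 12 of each line, and PTPRC on 12 A549 and 11 H1975 arrays. The endothelial marker CDH5 was above background on all 12 of each line, and PECAM1 and VWF on 12 H1975 and 0 A549 arrays. Of the fibroblast markers, COL1A2 and PDGFRB were above background on 12 H1975 and 0 A549 arrays, LUM on 12 A549 and 0 H1975 arrays, and DCN on none. The part of these markers in the differences between the lines was not tested. AKR1B10, AKR1C1 and ALDH1A1, known to be high in A549 cells, were higher there. Of the genes known to be deleted in A549 cells, CDKN2B was above background on 0 A549 arrays. CDKN2A and MTAP were above it on 12, against that label. The median of CDKN2A was lower in A549 than in H1975 cells (-1.76 against 2.64), and that of MTAP was higher (-0.72 against -3.00). In A549 cells at 24 h, the PBS and Pirfenidone samples of run 1 gave differences opposite to those of both other runs for SMAD3, SMAD6, SMURF1, SMURF2 and the brighter SMAD9 probe. Leaving this pair out kept the same 5 probes past the threshold between the lines at 24 h, and its effect on the drug comparison is given there.

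**Figure D1:**
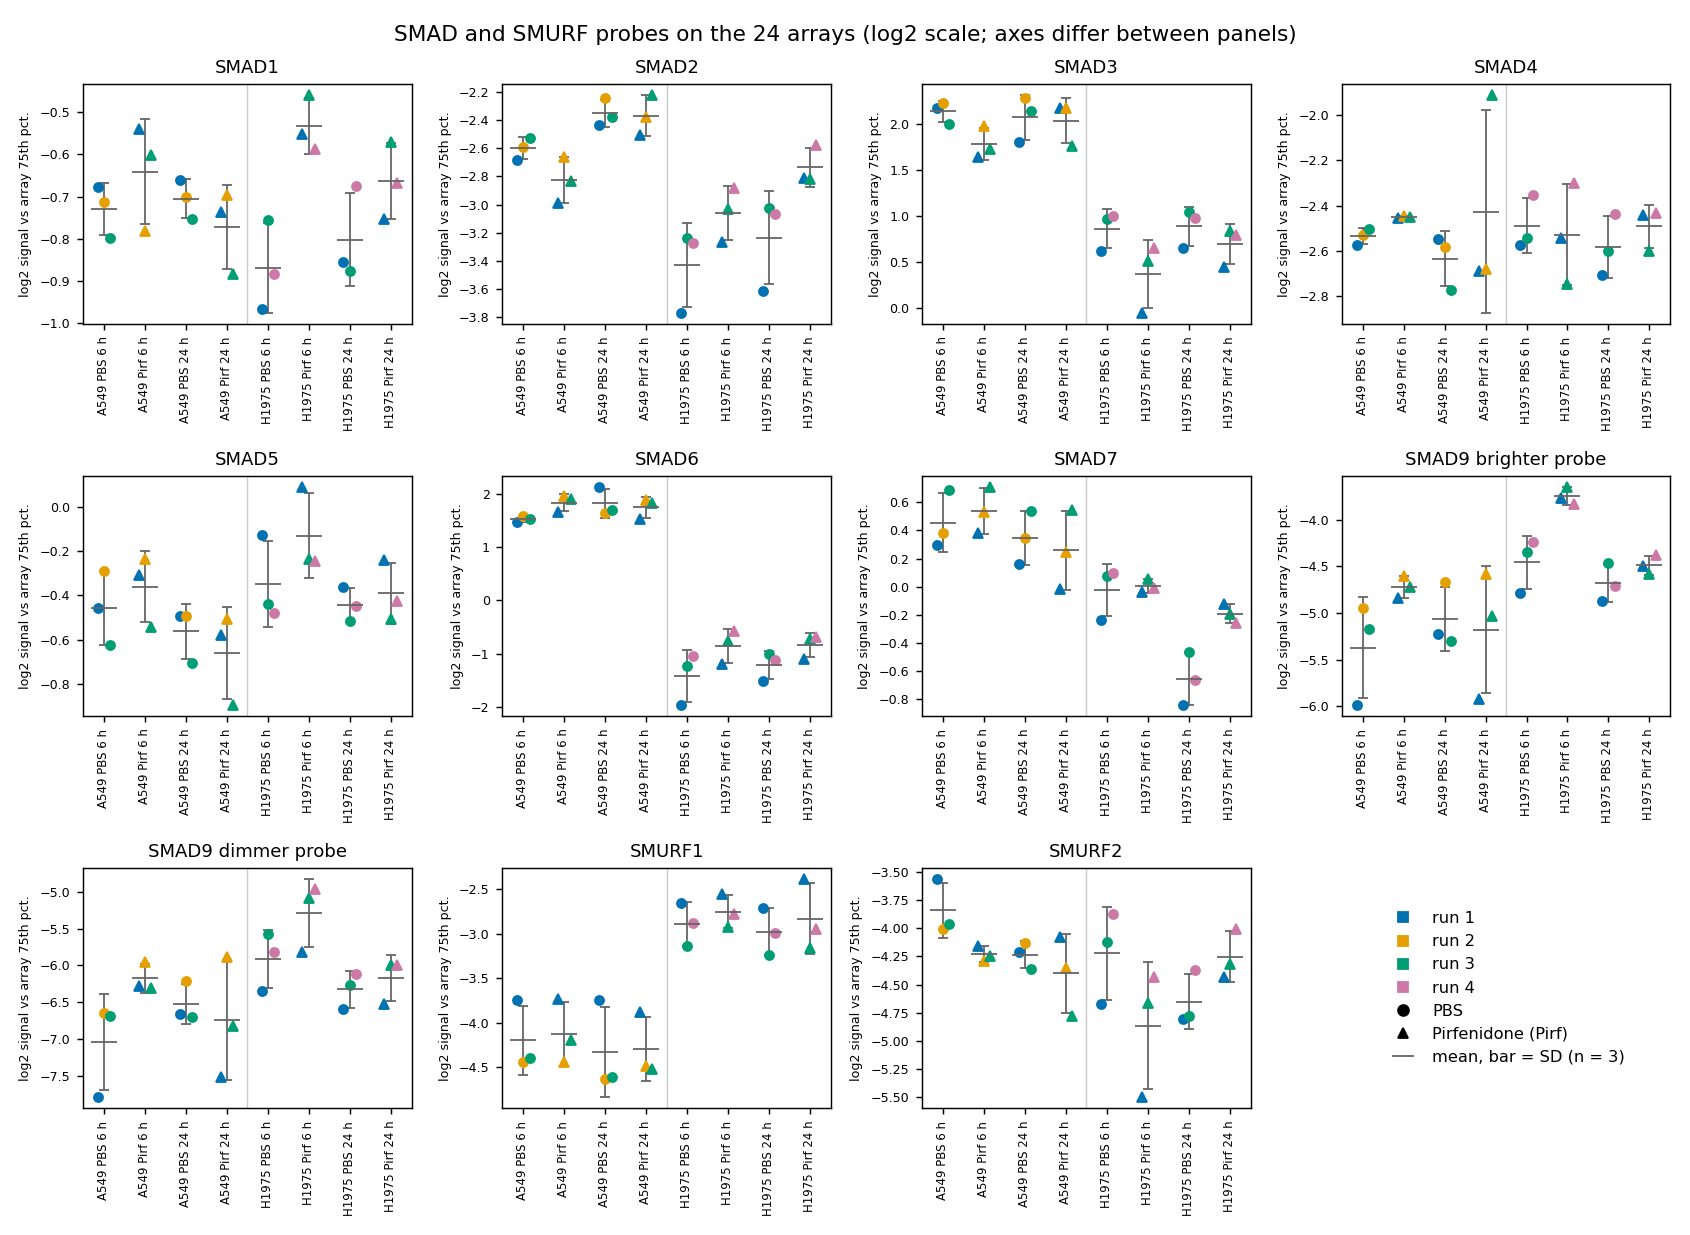
Relative log2 signal of each SMAD and SMURF probe (vertical axes, which differ between panels) in the 8 groups, with circles for PBS, triangles for Pirfenidone, colors for runs, and the mean with its SD (n = 3). SMAD6 and SMAD3 lie higher in all 12 A549 arrays than in any H1975 array, SMURF1 lies lower in all of them, and the other probes overlap between the lines.

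The clearest differences among these genes were between the cell lines. With PBS, SMAD6 RNA was 7.71-fold higher in A549 than in H1975 cells at 6 h and 8.30-fold higher at 24 h, SMAD3 was 2.42-fold and 2.28-fold higher, and SMAD2 was 1.78-fold and 1.84-fold higher. SMURF1 went the other way and was 2.48-fold and 2.55-fold higher in H1975 cells. Of the 11 probes, 7 differed at 6 h (3 higher and 4 lower in H1975, beside 30.7% and 27.9% of all probes) and 5 at 24 h (1 higher and 4 lower, beside 32% and 27.2%) at an adjusted p of 0.05 or less in limma. Differences between these lines were common: 58.6% of all probes tested passed at 6 h and 59.2% at 24 h, so a call between the lines is not particular to these genes. The 3 arrays of each line with PBS did not overlap for 7 of the 11 probes at 6 h, against 66.3% of all probes, and for 6 at 24 h, against 63.7%. A difference of at least 2-fold as well was met by 4 of the 11 probes at each time, against 32.4% and 32.9% of all probes. With run as a block 9 probes passed at 6 h, against 64.3% of all probes, and 8 passed at 24 h, against 64.9%, and with slide as a block 7 and 5 passed, against 59.2% and 59.7%.

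Among the receptor-regulated SMADs of the TGFβ branch, SMAD3 was at 2.18, 2.23 and 2.003 in A549 cells with PBS at 6 h (runs 1, 2 and 3) and at 0.62, 0.96 and 1.001 in H1975 cells (runs 1, 3 and 4). At 24 h it was at 1.80, 2.28 and 2.14 in A549 cells and at 0.65, 1.04 and 0.97 in H1975 cells. All A549 values were above all H1975 values at both times. The difference, H1975 minus A549, was -1.28 at 6 h (limma adjusted p = 1.05e-05) and -1.19 at 24 h (limma adjusted p = 2.38e-05), each with a standard error of 0.19. SMAD2 was at -2.68, -2.59 and -2.52 in A549 and at -3.77, -3.24 and -3.28 in H1975 cells at 6 h, again without overlap. Its difference was -0.83 at 6 h (standard error 0.16, limma adjusted p = 0.000253) and -0.88 (limma adjusted p = 0.000134) at 24 h. Over all treatments the 12 A549 values of SMAD3 ran from 1.64 to 2.28 and the 12 H1975 values from -0.06 to 1.04, while those of SMAD2 overlapped.

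Of the BMP branch, SMAD1 and SMAD5 did not pass. SMAD1 lay between -0.80 and -0.68 in A549 and between -0.97 and -0.76 in H1975 cells with PBS at 6 h, and its difference of -0.14 had a 95% interval from -0.34 to 0.06. SMAD5 differed by 0.11 at 6 h, with an interval from -0.18 to 0.40. With run as a block SMAD5 passed at both times, at 0.21 (limma adjusted p = 0.0235) and 0.22 (limma adjusted p = 0.0167), and it was higher in H1975 cells in all 8 pairs of samples from the runs that held both lines. The SMAD9 RNA was higher in H1975 cells at 6 h. Its brighter probe was at -5.99, -4.95 and -5.18 in A549 and at -4.78, -4.35 and -4.24 in H1975 cells, which did not overlap, a difference of 0.91 (standard error 0.28, limma adjusted p = 0.00903). The dimmer probe gave 1.12 (standard error 0.36, limma adjusted p = 0.0115). At 24 h the probes gave 0.38 and 0.20 and did not pass, while with run as a block the brighter probe passed at 0.55 (limma adjusted p = 0.0249). The calls at 6 h were lost under normexp background correction, at 0.42 (limma adjusted p = 0.363) and 0.15 (limma adjusted p = 0.847), and without the A549 PBS sample of replicate 3, at 0.61 (limma adjusted p = 0.0751) and 0.75 (limma adjusted p = 0.0892), and the dimmer probe also lost its call without the H1975 PBS sample of replicate 2 (limma adjusted p = 0.0536). Over the 24 arrays the brighter and the dimmer probe had a Pearson r of 0.93 and a Spearman rho of 0.93, a description that includes the lines and runs they share.

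SMAD4, the partner of all receptor-regulated SMADs, did not pass between the lines. It was at -2.57, -2.53 and -2.50 in A549 and at -2.57, -2.54 and -2.35 in H1975 cells with PBS at 6 h. The difference was 0.05 at both times, with a 95% interval from -0.29 to 0.39 at 6 h and at 24 h. One sample stood apart: the Pirfenidone sample of A549 cells at 24 h in run 3 was at -1.91, while the other 23 arrays lay between -2.77 and -2.30. This value is a mean over repeated spots of the probe, whose standard deviation within an array was at most 0.08.

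The inhibitory SMADs were both higher in A549 cells. SMAD6 was at 1.48, 1.59 and 1.53 in A549 cells with PBS at 6 h and at -1.97, -1.23 and -1.05 in H1975 cells. At 24 h it was at 2.15, 1.65 and 1.71 and at -1.52, -1.01 and -1.11. The lowest of the 12 A549 values over all treatments, 1.48, was 2.06 above the highest of the 12 H1975 values, -0.58. The difference was -2.95 (95% interval -3.41 to -2.49, limma adjusted p = 9.4e-10) at 6 h and -3.05 (95% interval -3.51 to -2.59, limma adjusted p = 5.58e-10) at 24 h. It was larger in size than that of 90.1% of all probes at 6 h and of 90.6% at 24 h. In the 8 pairs of samples from the same run, treatment and time it lay between -3.67 and -2.56. SMAD7 was at 0.29, 0.38 and 0.69 in A549 and at -0.24, 0.07 and 0.09 in H1975 cells with PBS at 6 h, and at 0.16, 0.34 and 0.54 and at -0.84, -0.46 and -0.66 at 24 h. Neither time showed an overlap. The difference was -0.48 at 6 h (limma adjusted p = 0.0112) and -1.002 at 24 h (limma adjusted p = 1.35e-05), each with a standard error of 0.15. The call at 6 h was lost without the A549 PBS sample of replicate 2, at -0.36 (limma adjusted p = 0.0732), or the H1975 PBS sample of replicate 1, at -0.37 (limma adjusted p = 0.0636).

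The sequence before the start of SMAD6 is shown because it holds a motif of the SMAD proteins themselves. The palindrome GTCTAGAC, a known binding sequence of SMAD3 and SMAD4, was searched for on both strands in the 250 bases before each annotated start, from RefSeq on GRCh38.p14. It was in 1 of the 21 windows of the genes described here, that of SMAD6, and in 64 of 35116 windows of all genes (0.182%). A copy outside these windows, also one past the start, would not have been found for any gene. The window of SMAD6 follows, with the palindrome in capitals, and its first base lies 12 bases before the start.
SMAD6, chr15:66701986-66702235 on GRCh38.p14, plus strand: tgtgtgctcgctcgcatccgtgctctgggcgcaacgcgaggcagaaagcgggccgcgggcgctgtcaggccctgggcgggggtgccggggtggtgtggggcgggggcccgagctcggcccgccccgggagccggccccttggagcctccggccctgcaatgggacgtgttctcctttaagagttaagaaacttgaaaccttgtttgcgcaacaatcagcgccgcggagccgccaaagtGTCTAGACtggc
The shorter sequence CAGAC, which does not overlap the palindrome, was in 6 of the 21 windows of these genes, against 38% of all windows. Those windows belonged to 4 of the 10 genes (SMAD1, SMAD3, SMAD7 and SMURF1). GGCGCC, bound by the SMADs of the BMP branch, was also in 6 of the 21 windows, against 16.4% of all windows. Those belonged to 4 genes (SMAD1, SMAD2, SMAD3 and SMAD4). Whether these shares differ from those of all windows was not tested. These matches are letters in a window, and binding was not measured.

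SMURF1, which with SMURF2 attaches ubiquitin to SMADs and their receptors, was at -3.75, -4.44 and -4.40 in A549 cells with PBS at 6 h and at -2.65, -3.14 and -2.88 in H1975 cells. No value overlapped, and the difference was 1.31 at 6 h (standard error 0.28, limma adjusted p = 0.00046) and 1.35 (limma adjusted p = 0.000334) at 24 h. The samples of run 1 were the highest of their groups in both lines, and within runs the difference was at least 1.04 in all 8 pairs. SMURF2 was at -3.56, -4.01 and -3.96 in A549 and at -4.68, -4.12 and -3.87 in H1975 cells at 6 h, which overlapped, and did not pass at either time. With run as a block its difference was -0.55 (limma adjusted p = 0.04) at 6 h and -0.59 (limma adjusted p = 0.0296) at 24 h. Only SMAD3, SMAD6 and SMURF1 kept all 12 arrays of one line on one side of all 12 of the other, 3 of the 11 probes against 37.9% of all probes.

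**Figure D2:**
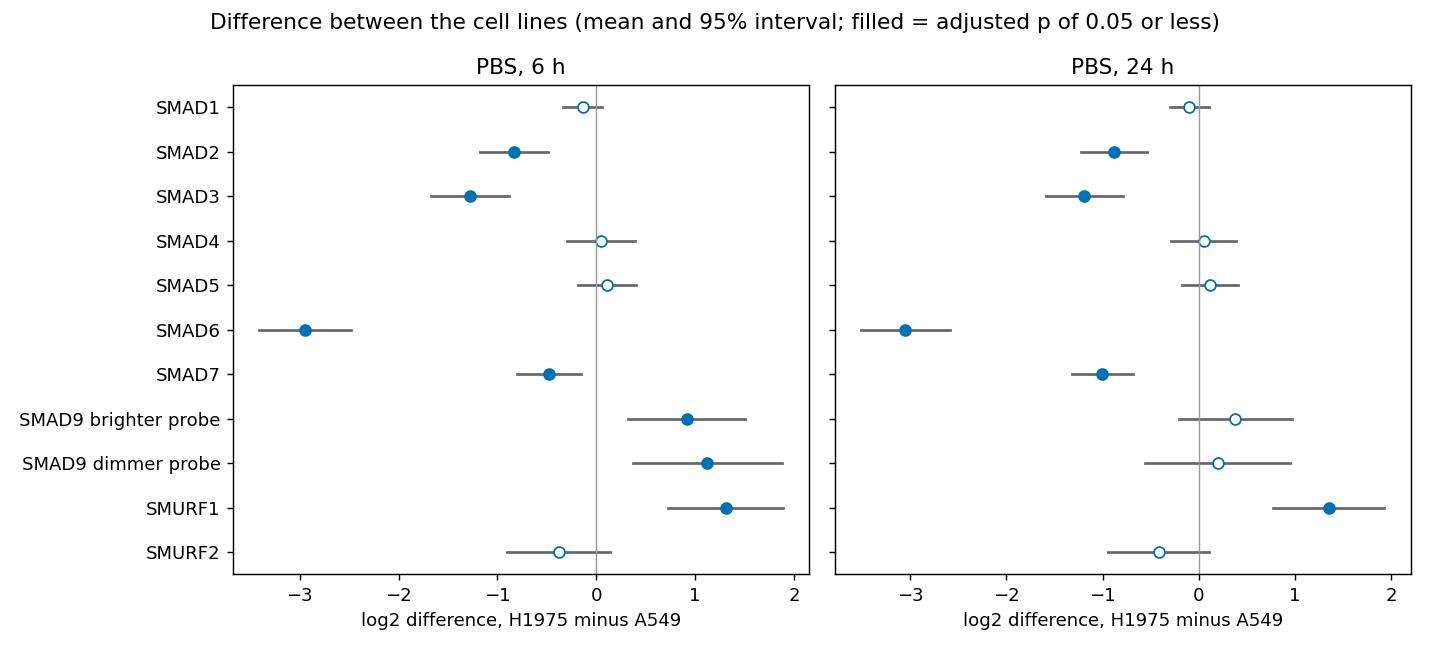
Difference between the lines with PBS at 6 h and 24 h for each probe (horizontal axis, H1975 minus A549 on the log2 scale), with the 95% interval from limma; filled points passed at an adjusted p of 0.05 or less. SMAD6 stands farthest from 0, at -2.95 and -3.05, SMURF1 is the probe farthest to the right, and the SMAD9 probes pass at 6 h only.

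**Figure D3:**
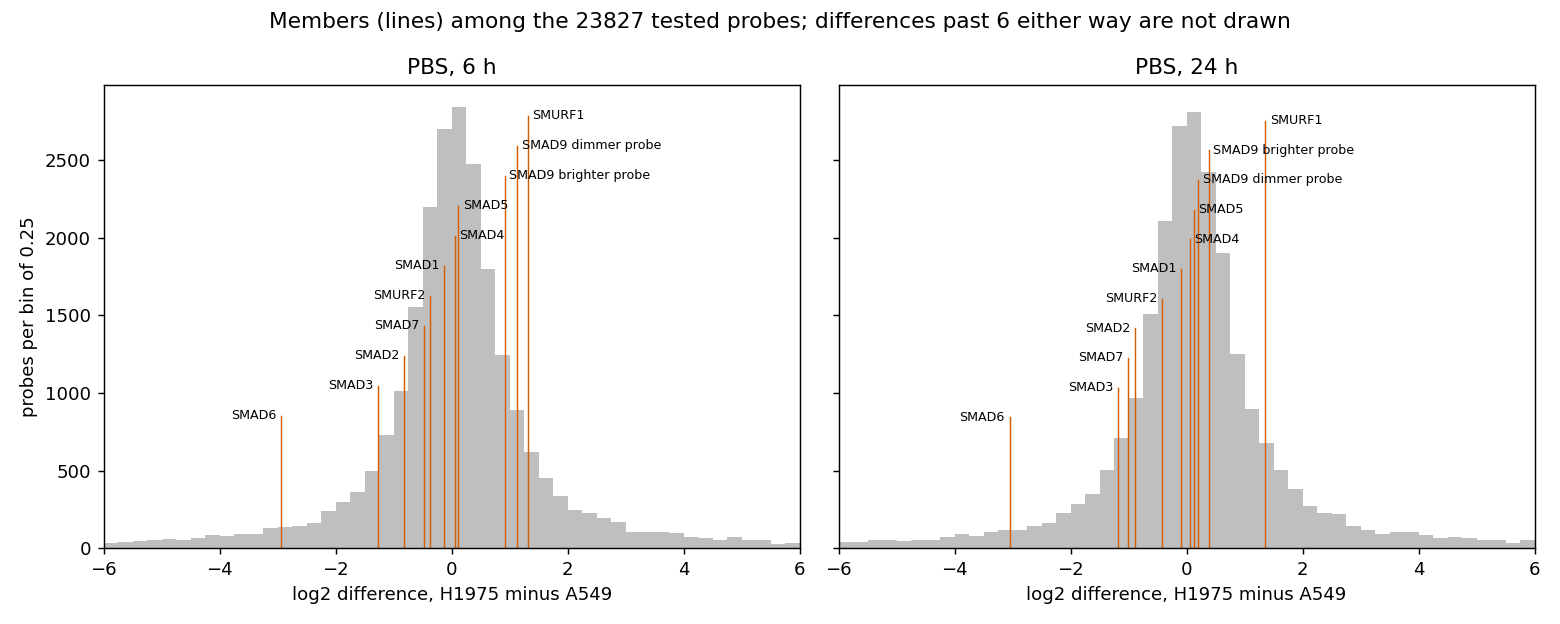
The same differences (vertical lines) over a histogram of all 23827 probes tested, counted in bins of 0.25 on the log2 scale; differences past 6 in either direction are not drawn. SMAD4, SMAD5 and SMAD1 sit near the center and SMAD6 in the left tail, where 90.1% of probes at 6 h had a smaller difference in size.

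Whether Pirfenidone changed the RNA of these genes was asked in each line at each time. In the fit of all arrays 0 of the 11 probes passed in any of the comparisons of Pirfenidone with PBS. The share of all probes that passed was 0.34% in A549 cells and 1.41% in H1975 cells at 6 h, and 0.0126% and 6.26% at 24 h. Without the pair of run 1 the share in A549 cells at 24 h was 0.0588%, and 1.1% when run was also a block. Of the 11 probes 0 passed in either fit. At an unadjusted limma p under 0.05 the counts were 2 and 6 probes at 6 h, against 6.01% and 11% of all probes, and 0 and 2 at 24 h, against 0.953% and 22%. The methods' t-test, which is named there in general and not for the arrays, was paired by run here. It gave 2 and 6 probes at 6 h at an unadjusted p of 0.05, against 17.4% and 22% of all probes, and 0 and 3 at 24 h, against 1.63% and 27.2%, with 0 after Benjamini-Hochberg in each. The samples of a run deviated together in H1975 cells at both times and in A549 cells at 6 h, and less so in A549 cells at 24 h. The spread between runs therefore enters the fit without a block, and the values with run or slide as a block are given beside it. In A549 cells 0 probes passed with either block, against 0.722% (run) and 1.64% (slide) of all probes at 6 h and 0.0252% and 0.0672% at 24 h. In H1975 cells at 6 h, 1 probe passed with run as a block, against 3.4%, and 5 with slide as a block, against 6.48%, which is a larger share. In H1975 cells at 24 h, 2 passed with either block, against 13.2% and 17.3%.

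At 6 h SMAD3 was lower with Pirfenidone in each run of both lines, although it did not pass in the fit of all arrays. In A549 cells it was at 2.18, 2.23 and 2.003 with PBS and at 1.64, 1.98 and 1.73 with Pirfenidone (runs 1, 2 and 3), with no overlap. The difference was -0.35 (95% interval -0.75 to 0.04, limma adjusted p = 0.929, with run as a block 0.439). In H1975 cells it was at 0.62, 0.96 and 1.001 with PBS and at -0.06, 0.51 and 0.65 with Pirfenidone (runs 1, 3 and 4), where the groups overlapped. The difference was -0.49 (95% interval -0.89 to -0.10, limma adjusted p = 0.292), which passed with slide as a block (limma adjusted p = 0.0252) and not with run as a block (limma adjusted p = 0.0891). Without the Pirfenidone sample of replicate 3 (run 1) it was -0.28, and that of SMURF2 was -0.32. At 24 h the difference was -0.20 in H1975 cells (95% interval -0.60 to 0.20, limma adjusted p = 0.615), with every run between -0.21 and -0.18. In A549 cells at 24 h it was -0.04 (limma adjusted p = 1), with 0.37 in run 1 and -0.10 and -0.38 in runs 2 and 3, and -0.24 without the pair of run 1 (limma adjusted p = 0.873).

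SMAD2 did not follow SMAD3. In H1975 cells at 24 h it was at -3.62, -3.02 and -3.06 with PBS and at -2.81, -2.82 and -2.57 with Pirfenidone, so that every Pirfenidone sample was above every PBS sample. The difference was 0.50 (95% interval 0.15 to 0.84, limma adjusted p = 0.0772), and it passed with run (limma adjusted p = 0.00994) and with slide as a block (limma adjusted p = 0.00673). It was 0.31 without the PBS sample of replicate 3 (run 1). At 6 h the differences within runs were 0.21 to 0.50 in H1975 cells and -0.31 to -0.07 in A549 cells, neither of which passed in any of these fits.

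In the BMP branch, SMAD9 was higher with Pirfenidone at 6 h in each run of both lines. In A549 cells the brighter probe was at -5.99, -4.95 and -5.18 with PBS and at -4.84, -4.60 and -4.72 with Pirfenidone, without overlap, a difference of 0.65 (95% interval 0.06 to 1.24, limma adjusted p = 0.711). It was 0.34 without the PBS sample of replicate 3 (run 1) and 0.36 under normexp background correction. In H1975 cells it was at -4.78, -4.35 and -4.24 and at -3.76, -3.65 and -3.83, also without overlap, a difference of 0.71 (95% interval 0.12 to 1.30, limma adjusted p = 0.307). This difference in H1975 cells passed with run (limma adjusted p = 0.0497) and with slide as a block (limma adjusted p = 0.0352). The dimmer probe gave 0.86 in A549 and 0.62 in H1975 cells at 6 h and did not pass in any of these fits, and under normexp it gave 0.29 and 1.18. SMAD1 was at -0.97, -0.76 and -0.88 with PBS and at -0.55, -0.46 and -0.59 with Pirfenidone in H1975 cells at 6 h, without overlap. Its difference was 0.34 (95% interval 0.14 to 0.54, limma adjusted p = 0.101), which passed with slide as a block (limma adjusted p = 0.00773) and not with run (limma adjusted p = 0.0666). In the fit of all arrays SMAD5 differed by 0.22 or less in size in every comparison with the drug, and SMAD4 by 0.21 or less. Under normexp they gave 0.26 and 0.31 in H1975 cells at 6 h. Without the pair of run 1 SMAD4 gave 0.38 in A549 cells at 24 h.

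SMAD6 was higher with Pirfenidone at 6 h in each run of both lines. In A549 cells it was at 1.48, 1.59 and 1.53 with PBS and at 1.66, 1.97 and 1.91 with Pirfenidone, without overlap, and the difference was 0.31 (95% interval -0.15 to 0.78, limma adjusted p = 1). In H1975 cells it was at -1.97, -1.23 and -1.05 and at -1.20, -0.77 and -0.58, and the difference of 0.56 (95% interval 0.10 to 1.02, limma adjusted p = 0.301) passed with slide as a block (limma adjusted p = 0.0328) and not with run (limma adjusted p = 0.0909). At 24 h it was 0.38 in H1975 and -0.08 in A549 cells, where run 1 gave -0.61 and runs 2 and 3 gave 0.25 and 0.13. Without the pair of run 1 the A549 difference was 0.19 (limma adjusted p = 0.938), that of the brighter SMAD9 probe turned from -0.11 to 0.17, and that of the dimmer one from -0.22 to 0.10. In H1975 cells the SMAD6 difference was 0.29 at 6 h without the PBS sample of replicate 1 and 0.22 at 24 h without the PBS sample of replicate 3, both of run 1.

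SMAD7 showed its difference at the later time and in H1975 cells. At 24 h it was at -0.84, -0.46 and -0.66 with PBS and at -0.13, -0.19 and -0.26 with Pirfenidone (runs 1, 3 and 4), without overlap. The difference was 0.46 (95% interval 0.14 to 0.78, limma adjusted p = 0.0758), and it passed with run (limma adjusted p = 0.011) and with slide as a block (limma adjusted p = 0.00599). In A549 cells at 24 h it was -0.09 (95% interval -0.41 to 0.23). The change in H1975 minus that in A549 cells was 0.55 (limma adjusted p = 0.285), 0.55 with run as a block (limma adjusted p = 0.0703) and 0.58 with slide as a block (limma adjusted p = 0.0359). The PBS samples of H1975 cells themselves moved with time: SMAD7 was at -0.24, 0.07 and 0.09 at 6 h, above every value at 24 h, a difference of -0.63 (limma adjusted p = 0.0699), which passed with run (limma adjusted p = 0.00424) and with slide as a block (limma adjusted p = 0.00145). Both comparisons use the same PBS samples at 24 h, so they are not independent. Of these samples, that of run 3 lay on a slide apart from the other H1975 samples of its run.

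SMURF2 was lower with Pirfenidone at 6 h in each run of both lines, and in H1975 cells higher in each run at 24 h. In H1975 cells at 6 h it was at -4.68, -4.12 and -3.87 with PBS and at -5.50, -4.66 and -4.43 with Pirfenidone (runs 1, 3 and 4), a difference of -0.64 (95% interval -1.16 to -0.12, limma adjusted p = 0.297) that passed with slide as a block (limma adjusted p = 0.0234) and not with run (limma adjusted p = 0.116). Its direction turned to 0.30 under normexp background correction, under which the median of all probes in this comparison moved from 0.05 to 0.29. At 24 h it was at -4.80, -4.78 and -4.37 and at -4.44, -4.31 and -4.00, a difference of 0.40 (95% interval -0.12 to 0.92, limma adjusted p = 0.376). In A549 cells at 6 h it was at -3.56, -4.01 and -3.96 and at -4.16, -4.29 and -4.24, without overlap, a difference of -0.39 (95% interval -0.91 to 0.13, limma adjusted p = 1). In the fit of all arrays SMURF1 differed by 0.15 or less in size in every comparison with the drug, with a 95% interval from -0.43 to 0.73 in H1975 cells at 24 h. Under normexp it gave 0.50 in H1975 cells at 6 h.

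**Figure D4:**
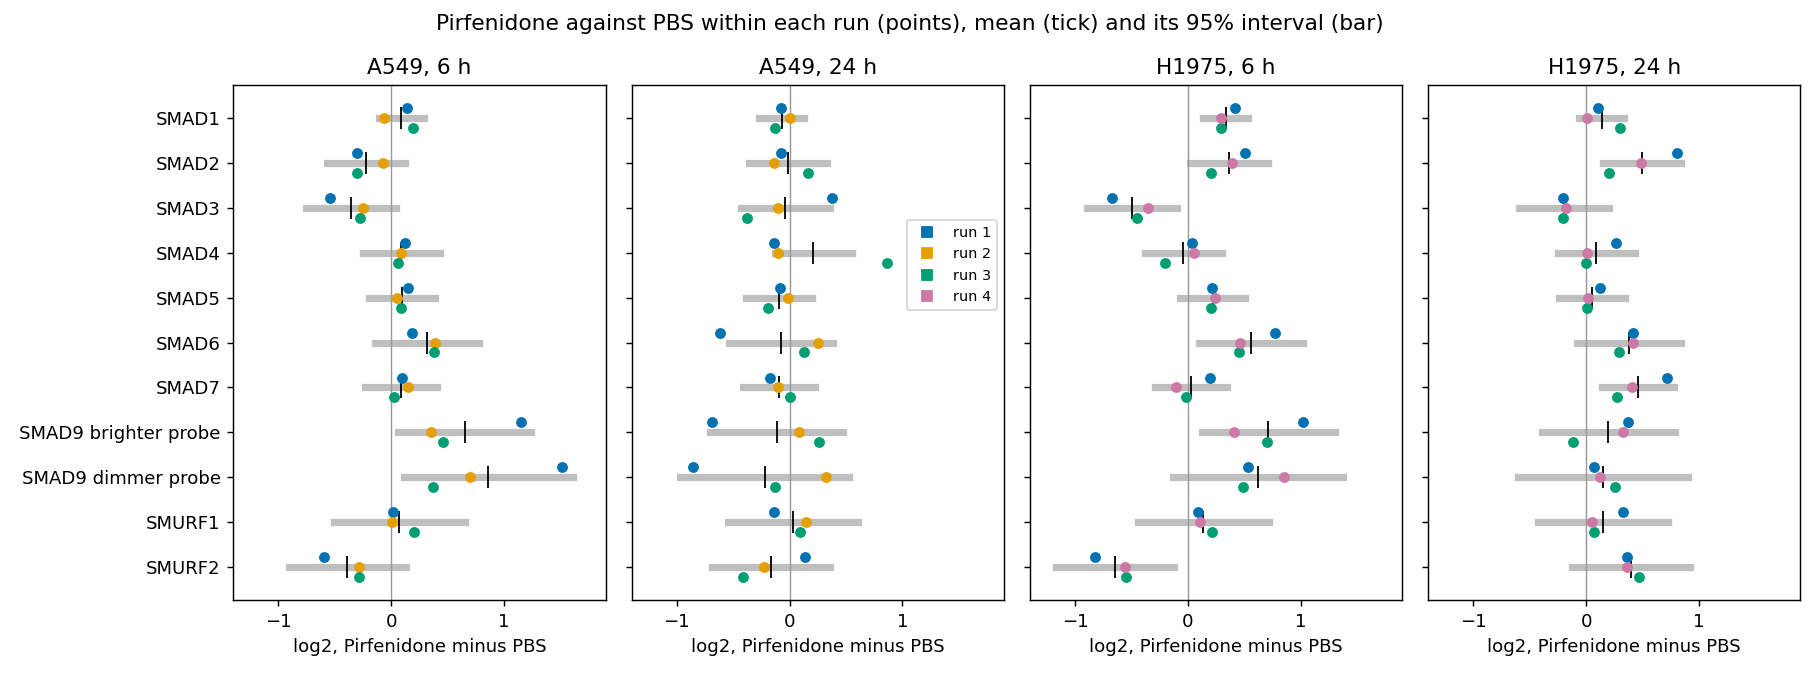
Pirfenidone minus PBS on the log2 scale (horizontal axis) for each probe within each run (colored points), with the mean (black tick) and its 95% interval from limma (gray bar). At 6 h all points of SMAD3 and SMURF2 lie left of 0 and all points of SMAD6 and SMAD9 lie right of 0 in both lines, and in A549 cells at 24 h run 1 lies apart from the other runs for SMAD3, SMAD6 and the brighter SMAD9 probe.

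Counted over all genes, 6 of the 11 probes had no overlap between Pirfenidone and PBS in A549 cells at 6 h (SMAD3, SMAD4, SMAD6, SMURF2 and both SMAD9 probes), against 15.3% of all probes. The counts were 0 in A549 cells at 24 h against 1.82%, 2 in H1975 at 6 h against 17.8%, and 2 in H1975 at 24 h against 31.9%. At 6 h, 7 of the 11 probes differed the same way in all 6 pairs of both lines, against 26.1% of all probes, and at 24 h none did, against 2.3%. The median difference of the 11 probes was 0.09 at 6 h and -0.08 at 24 h in A549 cells (0.01 without the pair of run 1), and 0.22 and 0.15 in H1975 cells, beside -0.01, -0.02, 0.05 and 0.02 for all probes.

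Time in culture without the drug moved no probe past the threshold. At an adjusted p of 0.05 or less limma gave 0 of 11 probes in A549 cells between 6 h and 24 h, against 0.134% of all probes, and 0 in H1975 cells, against 0.663%. At an unadjusted p under 0.05 it gave 0 and 1, against 8.49% and 10.6%. No probe passed for a difference between the lines in the drug's change either (0.0378% of all probes at 6 h and 0.239% at 24 h), or for a difference between 6 h and 24 h in that change (0.0294% for A549 cells, 0.00839% for H1975 cells), with 1, 2, 1 and 1 probes at an unadjusted p under 0.05, against 2.63%, 12.2%, 3.04% and 5.86%. With run as a block SMAD7 passed in H1975 cells with PBS over time, against 2.87% of all probes, and no other probe in the time comparisons or these differences (0.487% in A549 with PBS, and 0.147%, 0.99%, 0.0336% and 0.0336% for the differences). With slide as a block SMAD7 passed there too, against 5.01%, and for the difference between the lines at 24 h, against 3.75%, and no other probe did (1.62% in A549 with PBS, 0.403% for the lines at 6 h, and 0.239% and 0.306% for the times).

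Other genes of the pathway were grouped into lists of SMAD partners and nuclear cofactors (17 genes), of anchors, phosphatases and transport proteins (15), of other ubiquitin ligases and deubiquitinases (15) and of SMAD target genes (20), each by its brightest probe. In A549 cells 0 genes of these lists passed with Pirfenidone at either time. In H1975 cells 1 partner rose at 6 h and 1 at 24 h, both times TGIF1, a corepressor that binds SMADs, by 0.73 (limma adjusted p = 0.011) and 0.53 (limma adjusted p = 0.0317). Of the target genes 2 rose at 6 h, ID1 by 0.75 (limma adjusted p = 0.0182) and ID2 by 1.04 (limma adjusted p = 0.00396), inhibitors of differentiation induced by BMPs, and 1 rose at 24 h, CDKN1A by 0.95 (limma adjusted p = 0.0326), which encodes the inhibitor p21 of the cell cycle. None fell, and no gene of the other lists passed. Of all probes, 1.41% passed in H1975 cells at 6 h and 6.26% at 24 h, and 0.34% and 0.0126% in A549 cells. With run as a block CTGF also fell at 6 h, at -1.30 (limma adjusted p = 0.0138), ID2 and ANGPTL4 also rose at 24 h, by 0.45 (limma adjusted p = 0.00849) and 1.45 (limma adjusted p = 0.0335), and USP9X, a deubiquitinase, fell at 24 h, at -0.77 (limma adjusted p = 0.0212). With that block 3.4% of all probes passed in H1975 cells at 6 h and 13.2% at 24 h. Whether the lists passed more often than all probes was not tested. The medians of the target genes were 0.08 at 6 h and 0.23 at 24 h in H1975 cells, beside 0.05 and 0.02 for all probes, and -0.003 and -0.14 in A549 cells.

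Between the lines with PBS at 6 h, 6 partners were higher and 5 lower in H1975 cells, with 3 and 6 anchors and transport proteins, 5 and 4 ligases and deubiquitinases, and 5 and 7 target genes. At 24 h the counts were 8 and 4, 3 and 5, 4 and 4, and 3 and 8 in the same order. The lists share genes: SKIL is both a partner and a target, and PMEPA1 is both an anchor and a target. Each was lower in H1975 cells at both times and is counted in both of its lists. Beside the 30.7% of all probes higher and 27.9% lower at 6 h, and 32% and 27.2% at 24 h, these counts are no result about the lists. ID1, ID2 and ID3, whose RNA follows the BMP branch, were all lower in H1975 cells, by -1.09, -2.93 and -1.81 on the log2 scale (limma adjusted p = 5.66e-06, 3.08e-11 and 6.05e-09). BAMBI, a decoy receptor of the family, was also lower, at -1.34 (limma adjusted p = 0.000948). Among the ligases NEDD4, a relative of the SMURF proteins, was lower in H1975 cells, at -3.01 (limma adjusted p = 2.31e-09). SMAD5-AS1, the antisense transcript at the SMAD5 locus, did not pass in any comparison in the fit without a block, with differences from -0.13 to 0.42 for the drug. With run as a block it passed between the lines at 6 h (limma adjusted p = 0.0146), where the fit without a block gave -0.42.

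The probes most like SMAD3, SMAD7 and SMURF2 over the 24 arrays, after the mean of each line was removed, were found among 18836 probes well above background on all arrays. For SMAD3 they were UBQLN2, ZNF271P and PNN, with a Pearson r of 0.93, 0.92 and 0.92. For SMAD7 they were HILS1, SPTBN1 and PPP1R15A, at 0.86, 0.81 and 0.80, and for SMURF2 they were ANKRD1, KCTD1 and TMEM234, at 0.83, 0.83 and 0.82. These values are descriptions over arrays that share runs, slides, treatments and times.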

How the data were processed

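The authors hybridized total RNA of each sample, labeled with Cy3, to one-color Agilent arrays. The deposited scanner files, made with Agilent Feature Extraction version 11.5.1.1, hold the background-corrected intensity of each spot and flags per spot (other values) for outliers, saturation and signal well above background. The authors also deposited a table of log2 values, centered per probe. Its scaling per array is unknown here.

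Relative log2 signals were the log2 intensity minus each array's 75th percentile over 43118 noncontrol spots, averaged per probe after removal of outlier spots. Probes had to be well above background on every array of 1 or more groups. The 23827 that were entered 1 fit of the 8 groups in R 4.3.3 with limma 3.58.1. Passing means an adjusted p (Benjamini-Hochberg, over all these probes) of at most 0.05. The Westfall-Young adjustment named in the methods was not run. The steps were tested on simulated data with independent noise per array and planted changes larger than any drug difference of these genes. That test does not cover samples that vary together within a run or slide. Intervals cover 95%. Run was entered as fixed and slide as random block.

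The genes and lists were chosen with earlier results of these data known. Every probe of the 10 genes is named, and list genes only where they passed the test. Likeness names the 3 symbols of highest r. The labels do not say that samples of a group were separate cultures, so p-values measure only the spread between these samples, and their number limits the precision. Positions on hg19 are those of the files. Exons and untranslated regions were not annotated here. In the pairing check, deviations of PBS and Pirfenidone samples correlated by run between 0.46 and 0.82 in H1975 cells. In A549 cells they correlated between 0.58 and 0.70 at 6 h and between -0.10 and 0.39 at 24 h. Alternatives were normexp (offset 50), quantile normalization, the authors' values, filters on dim probes, the blocks, fits of only the arrays compared, a limit of 2-fold, the methods' t-test (paired by run here) and each array left out.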

Additional observations from a re-analysis of the deposited data

Results flagged for a closer look

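For 4 differences every run moved one way in one line or time and the opposite way in the other, while the test of the difference itself did not pass in limma. The share of all probes that met this rule was not counted, so the number 4 is no result about these genes. SMAD2 at 6 h was higher with Pirfenidone in all 3 runs of H1975 and lower in all 3 of A549 cells, and the changes differed by 0.60 (limma adjusted p = 1, and 0.214 with run as a block). SMAD5 at 24 h was higher in all runs of H1975 and lower in all of A549 cells, a difference of 0.15 (limma adjusted p = 0.854). Its differences within runs were small, from 0.008 to 0.12 in H1975 and from -0.19 to -0.01 in A549 cells. SMAD5 in A549 cells was higher in all runs at 6 h and lower in all at 24 h, a difference of -0.19 (limma adjusted p = 1). SMURF2 in H1975 cells was lower in all runs at 6 h and higher in all at 24 h, a difference of 1.04 (limma adjusted p = 0.593, and 0.271 with run as a block), which turned to -0.08 under normexp background correction.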

How the results depend on the processing

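The counts of SMAD and SMURF probes that passed were recomputed under each alternative. Of the values under alternatives 220 were within 1.5 times the main count and 14 were not. Outside the comparisons between the lines with PBS the main count was 0, so there a value within this limit was again 0. The SMAD9 calls between the lines lost under normexp at 6 h fell within the limit too. The tally therefore does not measure how stable each call was. With run as a block the counts became 1 in H1975 with Pirfenidone at 6 h, 2 at 24 h, 8 between the lines at 24 h and 1 in H1975 with PBS over time. With slide as a block they became 5 in H1975 at 6 h, 2 at 24 h, 1 in H1975 with PBS over time and 1 for the difference between the lines at 24 h. The 2-fold limit left 4 between the lines at 6 h. The methods' t-test, unadjusted, gave at 6 h 2 in A549 and 6 in H1975, and 3 in H1975 at 24 h, against 17.4%, 22% and 27.2% of all probes. The cause of these changes was not tested. Leaving out each array in turn gave 5 to 7 between the lines at 6 h, 5 at 24 h and 0 in the other comparisons. The replicate numbers did not pair the H1975 samples at 6 h (correlations -0.48, 0.43 and -0.68), and with the replicate block the counts became 2 in H1975 with Pirfenidone at 24 h and 1 in H1975 with PBS over time, with no other call changed by over 1.5 times. Without both A549 samples of run 1 at 24 h, 0 probes passed in A549 with Pirfenidone at 24 h, also with run as a block, against 0.0588% and 1.1% of all probes (0.0126% and 0.0252% with them), a setting chosen after the data were seen. Signals near background limit the SMAD9 values in A549 cells.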
